A study of Drosophila melanogaster with 9 samples.

Results

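Short and long nascent strands of Drosophila S2 cells were compared through the replication start regions that each had given. Nascent strands are the RNA-primed leading strands laid down as replication leaves an origin, and sequencing them after lambda exonuclease has digested unprimed DNA is known as SNS-Seq. The members were all regions of the fraction 4 list (short strands) and of the fraction 6 list (long strands) outside the mitochondrial genome. They numbered 4505 and 5813, or 10318 of the 32247 regions in the 5 lists of the study. The rest were the middle-sized fraction 5 of the same cells (6447 regions), the list from pooled fractions of S2 cells (7268 origins) and a list from a second cell line that was not used here.

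All groups compared were S2-DRSC cells, a cultured line derived from late Drosophila embryos, grown in Schneider's medium with serum, and the labels name no treatment. Gradient fragments of 0.5 to 2.5 kb were treated in up to 5 rounds with kinase and exonuclease. Each single fraction had 2 libraries but is represented by 1 list, and the pooled list joins 2 biological replicates. No spread between replicates can therefore be given for any value below, and no test between fractions was possible. Intervals in parentheses are 95% intervals that cover counting error only and treat regions as independent, although neighbouring regions share libraries and local sequence. The read depth behind the fraction lists is not stated in the labels or the lists. A cell line is a mixed population of cells, so a listed region is a place where strands were enriched over many cells.

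As a replication fork leaves its origin, the leading strand grows outward on each side, so long strands reach further from the start site than short ones. Metazoan origins commonly lie in clusters, and the site used can differ from cell to cell. Heterochromatin, assembled in this build partly as scaffolds whose names end in Het, is rich in repeats and tends to replicate late.

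Fraction 4 regions were fewer and wider than fraction 6 regions. Their median width was 689 bp against 578 bp, and they covered 5.30 Mb against 5.56 Mb. Narrow regions were frequent in the long strands, with 565 under 300 bp in fraction 6 and 17 in fraction 4. At the wide end, 283 and 230 regions reached 4 kb or more. The pooled S2 list had a median of 622 bp. Neighbouring regions less than 100 bp apart made up 5.63% of the gaps in fraction 4 and 8.12% in fraction 6.

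Most fraction 4 regions had a counterpart in the long strands. With an overlap of at least 1 bp, 3098 of the 4505 short-strand regions (68.8%, 67.4 to 70.1) met a long-strand region, and 3286 of the 5813 long-strand regions (56.5%, 55.2 to 57.8) met a short-strand one. The shared 3.70 Mb made up 69.9% of the bases of fraction 4 and 66.6% of those of fraction 6. Regions were then linked wherever they overlapped, which gave 6950 groups. Of these, 2733 held 1 region of each fraction, 1407 held fraction 4 alone and 2527 held fraction 6 alone.

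In the 3016 groups that held both fractions, a short-strand region broken up in the long strands was more frequent than the opposite. A split, meaning 1 fraction 4 region over 2 or more fraction 6 regions, was found in 212 groups, which is 7.03% (6.14 to 8.0). A join, meaning 2 or more fraction 4 regions under 1 fraction 6 region, was found in 45 groups, which is 1.49% (1.09 to 1.99). Another 26 groups held several regions of each. When regions of a list within 1 kb of each other were merged first, splits came to 1.60% and joins to 0.760%.

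**Figure D1:**
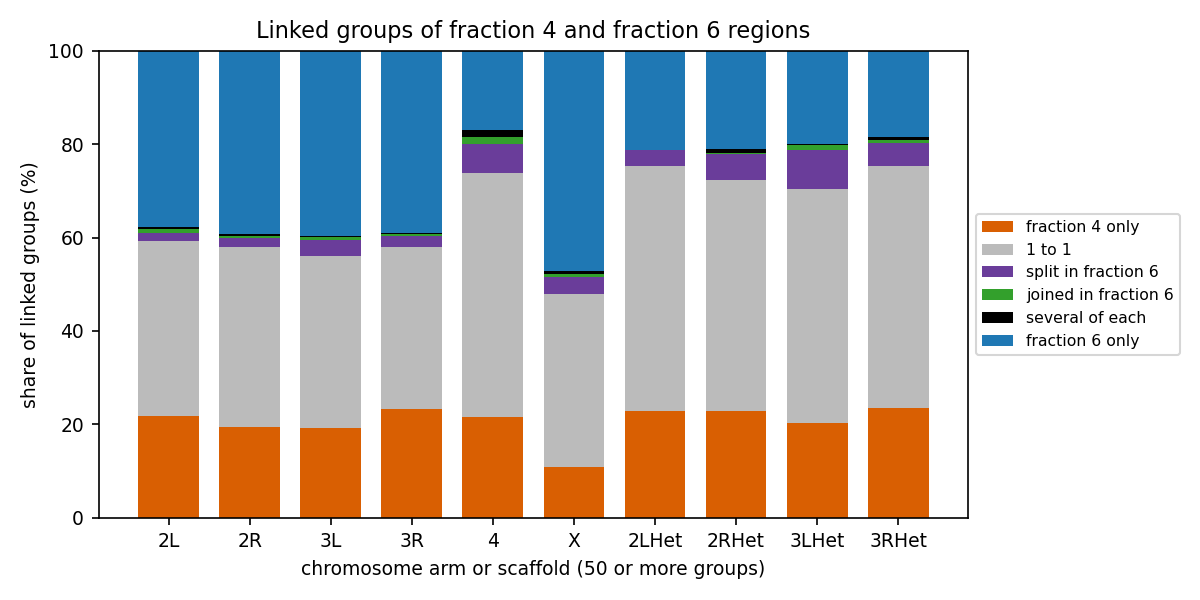
Linked groups of fraction 4 and fraction 6 regions on each chromosome arm or Het scaffold with at least 50 groups, as stacked shares in percent. Groups with both fractions were mostly matched 1 to 1, and X stands out by its groups of fraction 6 alone (297) beside few of fraction 4 alone (68).

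At splits the long-strand pieces together spanned nearly the short-strand region, with narrow gaps between them. The 212 splits held 453 fraction 6 regions: 185 had 2 pieces, 25 had 3 and 2 had 4. The 241 gaps had a median of 48 bp (quartiles 18 and 128), and 168 of them (69.7%) were under 100 bp. The 21 gaps over 500 bp included the longest, of 1291 bp. The fraction 4 regions that were split had a median width of 2483.5 bp, and the fraction 6 pieces together spanned a median of 0.956 of that width. Both outer edges lay within 50 bp of each other in 56 splits (26.4%). In a typical split the widest piece held 60.3% of the summed piece length. Of the 453 pieces, 38 were under 300 bp, in 33 of the 212 splits. Of all fraction 6 regions, 9.72% were this narrow. Among splits into 2 pieces, the gap lay in the central 1 of 3 equal parts of the region in 119 of 185 (64.3%, 57.0 to 71.2). The narrowest listed fraction 6 region was 135 bp, so a gap very near an end could not be seen. Nothing is therefore read from this share.

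Joins were fewer and held wider pieces, which came from fraction 4, the list with the wider regions. The 45 joins held 97 fraction 4 regions, and their 52 gaps had a median of 77 bp and reached 1649 bp. None of the pieces was under 300 bp, and 0.377% of all fraction 4 regions were. The narrowest piece had a median of 989 bp, against 588.5 bp in splits, and the joining fraction 6 region had a median width of 2826 bp. In 27 of the 38 joins of 2 regions (71.1%) the gap lay in the central part, with the same limit on gaps near an end.

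Splits were more frequent in wider regions up to 4 kb, and joins were most frequent from 2 to 4 kb. Of fraction 4 regions either matched 1 to 1 or split, 4 of 727 (0.550%) under 0.5 kb were split. The numbers were 29 of 1126 (2.58%) from 0.5 to 1 kb and 52 of 567 (9.17%) from 1 to 2 kb. The share was 65 of 252 (25.8%) from 2 to 4 kb and 62 of 273 (22.7%) from 4 kb on. Of fraction 6 regions either matched 1 to 1 or joining, 28 of 212 of 2 to 4 kb were joining (13.2%). The numbers were 6 of 203 from 4 kb on (2.96%) and 0 of 782 under 0.5 kb. A narrow region has little room to meet 2 regions of the other list. The 1st percentile of width was 239 bp in fraction 6 and 322 bp in fraction 4. Nothing is therefore read from the low shares in the narrowest class.

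**Figure D2:**
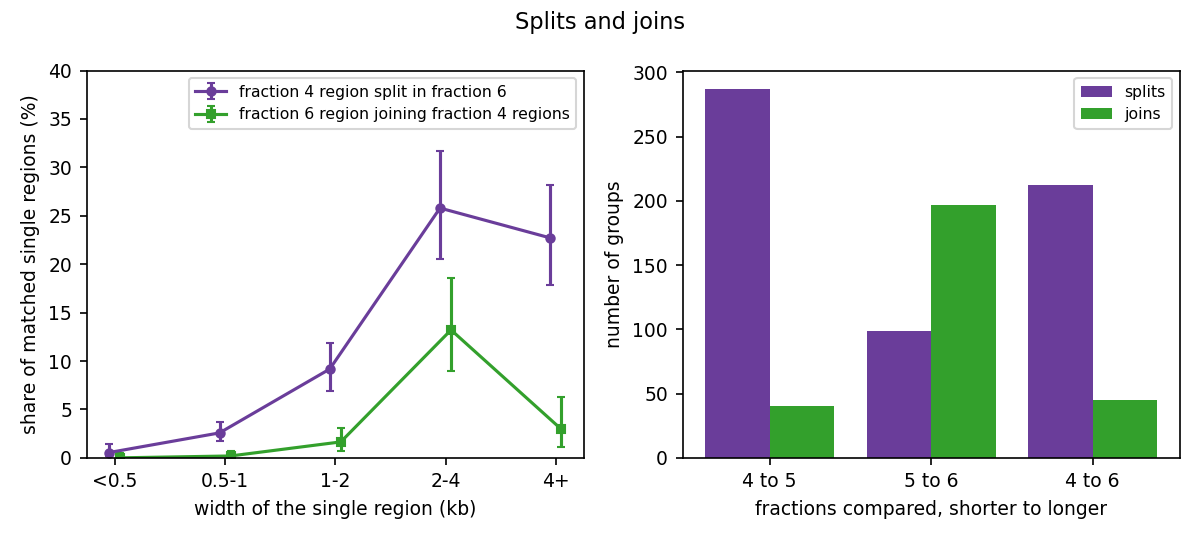
Left, share in percent of matched single regions that were split or joined, by width of the single region in kb, with exact 95% intervals. Right, number of splits and joins for each pair of fractions, read from the shorter to the longer: splits exceeded joins from 4 to 5 (287 against 40) and joins exceeded splits from 5 to 6 (197 against 99).

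At most splits the middle-sized strands were also in several regions. At 143 of the 212 splits (67.5%, 60.7 to 73.7) fraction 5 also held 2 or more regions, at 66 it held 1 and at 3 none. Among the 547 regions matched 1 to 1 whose fraction 4 width fell between the quartiles of the split regions, fraction 5 held 2 or more in 71 (13%, 10.3 to 16.1). The pooled S2 list held 2 or more origins at 32 splits (15.1%, 10.6 to 20.6), 1 at 124 and none at 56. In those 547 matches it held 2 or more in 22 (4.02%). The 212 splits were counted at all widths, while the matches lay between 1213.75 and 4058.5 bp. The 2 sets were therefore not fully alike in width, and wider regions can hold several others more easily. At the 45 joins, fraction 5 held 2 or more regions at 26 (57.8%, 42.2 to 72.3) and 1 at 19.

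Breaking up did not proceed step by step with strand length. From fraction 4 to 5 there were 287 splits (8.41% of matched groups) and 40 joins (1.17%), whereas from 5 to 6 there were 99 splits (2.26%) and 197 joins (4.50%). These pairs share lists, so their values are given side by side only. The step from 4 to 5 was also the step at which narrow regions appeared, with 782 under 300 bp in fraction 5.

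The most fragmented regions were named by the number of pieces. On 2RHet, 1 fraction 4 region of 3070 bp (2762501 to 2765570, build dm3 as in all positions here) stood over 4 fraction 6 regions of 514, 497, 392 and 1122 bp, fraction 5 also held 4, and no S2 pooled origin overlapped. On X, a region of 2849 bp (22373678 to 22376526) stood over 310, 424, 381 and 1564 bp in fraction 6. There the S2 list held 3 origins, the strongest with 6690.76 reads per kb. On 3L, a region of 7809 bp (1505910 to 1513718) stood over pieces of 1164, 5013 and 1549 bp. Another on 3L, of 6721 bp (17724620 to 17731340), stood over pieces of 5473, 731 and 440 bp, and its S2 origin had 9889.74 reads per kb. On 2R, a region of 7565 bp (6546700 to 6554264) stood over 1704, 5191 and 635 bp. The outer edges of all but the 2RHet group lay within 50 bp of each other in both fractions.

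The joins with most pieces each held 3 fraction 4 regions. On 2L at 348588 to 355437, regions of 1307, 2240 and 1578 bp became 1 of 6753 bp, across the longest join gap, of 1649 bp. On 3RHet at 1416789 to 1422420, regions of 2253, 1374 and 1443 bp became 1 of 5572 bp. On 3LHet at 951166 to 955093, regions of 668, 603 and 1108 bp lay under 1 of 3928 bp that also ran 1123 bp further on the higher-coordinate side. The remaining pair lay on 2L, at 19659074 to 19663663 and at 12559197 to 12563060. Of the groups with several regions in both fractions, the widest on 2L (12934468 to 12941425) held 3 and 3, and the widest on 2R (15802308 to 15809809) held 2 and 2.

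Where 1 region met 1 region, the edges of short and long strands mostly lay close together, and the small displacements ran inward. Of the 5466 edges of 2733 matches, 50.2% lay within 50 bp of each other, 79.2% within 200 bp and 92.5% within 500 bp. The median edge of fraction 6 lay 21 bp inside that of fraction 4 on the lower-coordinate side (quartiles 60 bp inside and 21 bp outside). On the higher-coordinate side it lay 22 bp inside (63 inside and 22 outside). Beyond 50 bp, fraction 4 reached further at 1 or both edges in 1050 matches (38.4%, 36.6 to 40.3) and fraction 6 in 724 (26.5%, 24.8 to 28.2). In 243 (8.89%) the 2 edges were displaced the same way along the chromosome, and in 716 (26.2%) neither edge passed 50 bp.

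The excess of fraction 4 lay mostly in short distances. Beyond 10 bp, fraction 4 reached further at 3248 edges and fraction 6 at 1568. Beyond 100 bp the numbers were 968 and 831, beyond 200 bp 615 and 522, and beyond 500 bp 209 and 203. With arms and Het scaffolds combined, long strands ran more than 500 bp past short ones about as often as the reverse.

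**Figure D3:**
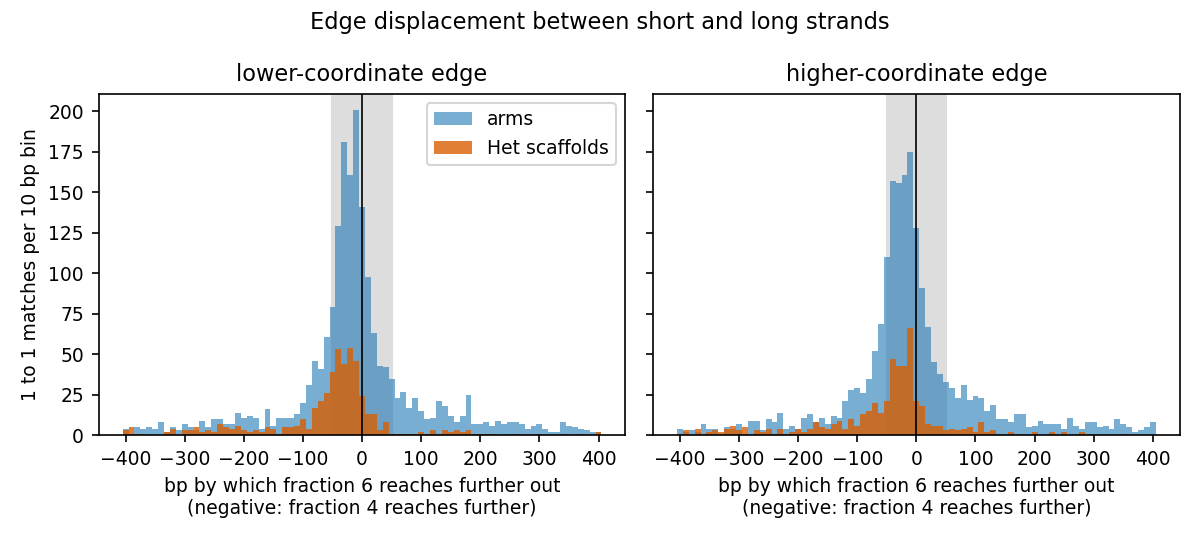
Number of 1 to 1 matches per 10 bp bin by the distance in bp at which fraction 6 reached further out than fraction 4, for the lower-coordinate and the higher-coordinate edge, with arms and Het scaffolds overlaid. The grey band marks 50 bp on each side, and the peak of both edges lies just below 0, at medians of -21 and -22 bp.

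Neither side of the chromosome was favoured. Beyond 50 bp, fraction 6 reached further at 546 lower and 558 higher edges, and fraction 4 at 796 and 822. Of 1005 matches with an edge displaced by over 200 bp, 873 had 1 such edge and 132 had both. The 132 comprised 32 in which fraction 6 reached out at both edges, 62 in which fraction 4 did and 38 displaced the same way along the chromosome. Across matches, the displacements of the 2 edges had a Pearson correlation of 0.114 and a Spearman correlation of 0.229, over 2733 matches that share their lists.

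Centres moved by more than 100 bp in 932 matches, 34.1% (32.3 to 35.9), toward lower coordinates in 461 and toward higher ones in 471. They moved by more than 200 bp in 481 (17.6%) and by more than 500 bp in 109 (3.99%). The largest moves came from 1 edge. On 3L at 23508468 to 23514837 a fraction 4 region of 2482 bp became 6364 bp, with the lower edges 6 bp apart and the higher edge 3888 bp further out. On 2L at 18665272 to 18669640, 1640 bp became 4369 bp, with 12 bp and 2717 bp. Toward lower coordinates, 4268 bp on 2L at 3059755 to 3068127 became 8113 bp and 2538 bp on chromosome 4 at 6329 to 12376 became 6033 bp. These 4 regions all gained width in the long strands at 1 edge. The other 2 named moves, on 3LHet and 2RHet, lost width at 1 edge and are given below.

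Widths changed little at the median. Matched regions had a median of 710 bp in fraction 4 and 715 bp in fraction 6, and the median ratio of fraction 6 over fraction 4 was 0.960 (0.954 to 0.970), or -0.06 on the log2 scale. Its quartiles were 0.799 and 1.14. Counting only pairs in which the wider region exceeded the narrower by more than 25%, 684 fraction 6 regions were narrower, 25% of the matches (23.4 to 26.7), and 548 were wider, 20.1% (18.6 to 21.6). With a limit of 1.5-fold, 14.1% were narrower. The widths of the 2 fractions had a Spearman correlation of 0.745 across matches.

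Past 2-fold, 178 matches (6.51%) were narrower and 156 (5.71%) wider in fraction 6. The narrower ones lay on the arms in 108 and on Het scaffolds in 70, and the wider ones in 147 and 9. Of all 2733 matches, 2149 lay on arms and 584 on Het scaffolds. Exactly 1 edge stayed within 50 bp in 87 of the 156 wider matches (55.8%, 47.6 to 63.7) and in 61 of the 178 narrower ones (34.3%). Such matches were common among all 2733. Fraction 6 reached further at the lower edge alone in 272 and at the higher edge alone in 315. Fraction 4 did so in 365 and 360. The share in the wider matches is therefore not read as particular to them.

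The largest gain was on 3L at 2185405 to 2187465, where 348 bp became 2061 bp, 5.92-fold. On 2R, 338 bp became 1436 bp (6459770 to 6461209, 4.25-fold) and 457 bp became 1925 bp (5424246 to 5426172, 4.21-fold), and in both the higher edges lay within 4 bp. The next were X at 1329138 to 1332376 (791 to 3239 bp) and 3LHet at 261124 to 264417 (816 to 3294 bp), which gained at both edges. The largest loss was on 3L at 11961468 to 11963312, where 1845 bp became 207 bp, 8.91-fold. On 2RHet at 425136 to 429220, 4085 bp became 516 bp and the centre moved by -1709.5 bp. On 3LHet at 1079417 to 1084861, 5428 bp became 726 bp and the centre moved by 2368 bp toward higher coordinates. The other 2 losses lay on 2RHet (2766187 to 2769628, 3442 to 685 bp) and 3RHet (1566952 to 1568306, 1355 to 277 bp). Of these, 4 of the 5 losses were on Het scaffolds, which held 584 of all 2733 matches. Arms held 4 of the 5 gains and 2149 of all matches, so the gains lay close to the share of all matches.

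Het scaffolds and arms differed in the direction of the width change. On the 6 arms, 452 of 2149 matches (21.0%, 19.3 to 22.8) were narrower in fraction 6 and 498 (23.2%) were wider. On Het scaffolds, 232 of 584 (39.7%, 35.7 to 43.8) were narrower and 50 (8.56%) wider. The difference in the narrower share was 18.7 percentage points (14.4 to 23.0). The median ratio was 0.981 (0.972 to 0.986) on arms and 0.881 (0.851 to 0.904) on scaffolds. In bp, the median went from 650 to 695 on arms and from 1009 to 796.5 on scaffolds. Fraction 4 reached further at 1 or both edges in 55.5% of scaffold matches and fraction 6 in 12.2%.

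Scaffold regions were wider in the short strands, and the comparison was therefore repeated in 3 equal groups by width. By fraction 4 width, the narrower share was 15.0% on arms and 37.0% on scaffolds in the narrowest group, 29.0% and 41.4% in the middle group, and 20.3% and 39.3% in the widest. By the mean width of both regions, a grouping chosen after the data were seen and divided at 581 and 1096 bp, it was 29.4% and 54.2%, 16.7% and 42.4%, and 13.7% and 28.5%. The difference in the middle group was 12.4 points by fraction 4 width and 25.7 points by mean width. By scaffold it was 37.5% on 2LHet, 35.4% on 2RHet, 44.6% on 3LHet and 44.0% on 3RHet. YHet stood apart with 3 of 19 matches narrower (15.8%) and 14 of 19 with neither edge displaced, and XHet had 0 of 4. The difference was seen from fraction 4 to 5, with 44.7% of scaffold matches and 21.1% of arm matches narrower. From 5 to 6 the shares were 9.58% and 13%.

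Splits were also more frequent on scaffolds, at 70 of 667 matched groups (10.5%, 8.27 to 13.1) against 142 of 2349 on arms (6.05%, 5.12 to 7.09), a difference of 4.45 points (2.10 to 7.16). Within groups of like fraction 4 width the difference was smaller. The shares on scaffolds and arms were 0% and 0.882% in the narrowest, 5.42% and 3.40% in the middle and 17.4% and 15.9% in the widest. After merging within 1 kb it was 1.21 points. Joins numbered 6 on scaffolds and 39 on arms.

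Sharing differed as well. On scaffolds 73.1% of short-strand regions (70.1 to 75.9) and 76.3% of long-strand regions (73.5 to 78.9) were found in the other list, and on arms 67.6% and 52.5%. The fraction 4 bases of a matched group had medians of 1148 bp on scaffolds and 688 bp on arms. Scaffolds also made up 23.1% of groups within 2 kb of another and 2.26% of those over 10 kb away. Wide and crowded regions overlap by 1 bp more easily, and overlap by chance was not estimated. The count of fraction 6 regions per fraction 4 region was 1.06 on scaffolds (990 against 933) and 1.29 over all sequences.

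Among the arms, X had the highest count of fraction 6 regions per fraction 4 region, 1.73 (590 against 342), and chromosome 4 the lowest, 1.05. The autosomal arms had 1.26 on 2L, 1.35 on 2R, 1.39 on 3L and 1.29 on 3R. Fraction 6 made up 63.3% (60.1 to 66.4) of the regions of both fractions on X and 56.7% (55.6 to 57.8) on the other arms, a difference of 6.58 points (3.25 to 9.82). Short-strand regions on X were usually found again: 80.1% (75.5 to 84.2) had a long-strand counterpart, whereas 49.7% (45.6 to 53.8) of the long-strand regions there had a short-strand one.

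Edges on X were displaced less often than on the other arms combined. Neither edge was displaced beyond 50 bp in 42.9% of X matches (36.5 to 49.5) and in 24.6% of those on the other arms (22.7 to 26.6), among which chromosome 4 had 14 of 34 (41.2%). Centres moved by more than 100 bp in 22.3% (17.1 to 28.2) and 34.0% (31.9 to 36.1), with 26.5% on chromosome 4. Splits on X came to 23 of 264 matched groups (8.71%), against 4.09% on 2L, 4.77% on 2R, 8.22% on 3L, 5.86% on 3R and 4 of 40 on chromosome 4 (10%). Widening was most frequent on 3R (28.8%) and 2L (25.7%) and least frequent on chromosome 4 (5.88%) and X (15.5%).

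Spacing was measured as the gap from a group to its nearest neighbour. Groups within 2 kb of another were called near, those from 2 to 10 kb middle and those over 10 kb far. The wider share in fraction 6 was 13.6% near, 23.9% in the middle class and 28.5% far, so isolated regions more often gained width in the long strands when all widths were combined. On the arms alone the wider share was 16.8%, 26.8% and 29.0%. In 3 equal groups by fraction 4 width, divided at 584 and 1163 bp, it was 27.6%, 36.1% and 38.7% in the narrowest, 11.2%, 19.4% and 23.8% in the middle, and 4.67%, 14.0% and 2.97% in the widest. The order by spacing was therefore absent from the widest regions. By the mean width of both regions it was 13.5%, 17.1% and 22.9% in the narrowest group, 17.4%, 34.1% and 52.7% in the middle, and 9.16%, 19.8% and 8.74% in the widest.

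The narrower share ran the other way, with 26.7% near, 25.3% in the middle class and 20.6% far, a difference between near and far of 6.02 points (1.68 to 10.1). Scaffolds made up 23.1% of near and 2.26% of far groups. On arms alone the narrower shares were 20.9%, 21.8% and 20.1%, and the difference was 0.819 points. Splits had no order by spacing, at 5.71%, 9.07% and 6.43%. Centre moves beyond 100 bp were most frequent in the middle class, at 29.7%, 40.7% and 32.8%. Fraction 4 regions were narrower when isolated, with medians of 797.5, 719.5 and 528 bp.

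Efficiency came from the pooled S2 list, a separate experiment, as reads per kb of the strongest overlapping origin. Origins were divided into 5 equal groups at 1326.5, 1480.64, 1683.65 and 2114.5 reads per kb, group 5 being the strongest. Sharing was lowest where no S2 origin overlapped and highest in group 5. Fraction 4 regions met fraction 6 in 48.6% where no S2 origin overlapped, in 66.2%, 70.8%, 75.1% and 81.9% in groups 1 to 4, and in 86.1% in group 5. For fraction 6 regions the shares were 38.0%, then 50%, 47.7%, 56.9% and 65.5%, and 86.4%. Origins were looked up over the whole span of a linked group. A shared region thus had a longer span, which favours an overlapping origin and a stronger one. Sharing was not compared at like width, so nothing is read from this order.

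Narrowing in the long strands was most frequent where the pooled list had no origin. It was seen in 40.9% of 706 such matches (37.3 to 44.7) and in 13% of 952 matches with a group 5 origin (11 to 15.3), a difference of 27.9 points (23.7 to 32.1). Groups 1 to 4 lay between at 28.7%, 23.3%, 29.4% and 22.7%. Widening was seen in 10.9% with no origin, 30.1% in group 4 and 20.6% in group 5. The difference in narrowing held on arms (36.9% with no origin, 11.7% in group 5) and on scaffolds (52.1% and 19.3%). It was 29.8 points from fraction 4 to 5 and 4.90 points from 5 to 6, so it lay mostly between fraction 4 and the other fractions. By fraction 4 width narrowing was seen in 32.2% and 8.30% in the narrowest group, 46.9% and 17.5% in the middle, and 44.3% and 12.6% in the widest. By mean width the shares were 48.3% and 22.0% in the narrowest group, 37.9% and 11.4% in the middle, and 28.6% and 10.0% in the widest.

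**Figure D4:**
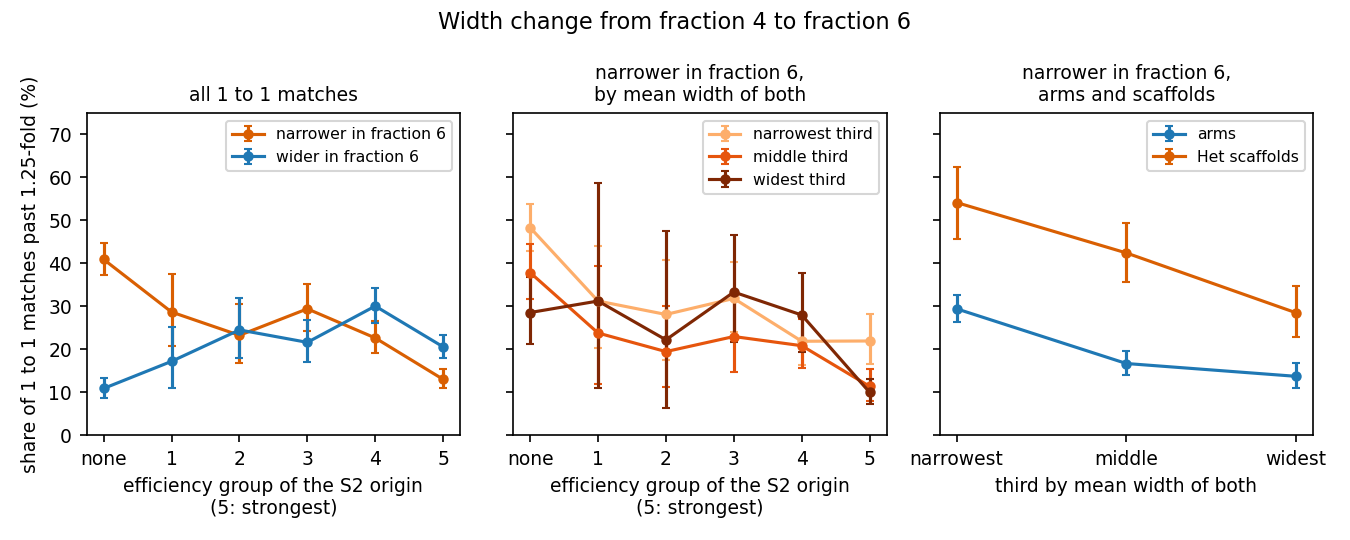
Share in percent of 1 to 1 matches whose fraction 6 region was narrower or wider by more than 25% of the narrower region, with exact 95% intervals, by efficiency group of the S2 origin, by efficiency within 3 groups of mean width, and for arms and Het scaffolds. Narrowing falls from 40.9% with no S2 origin to 13% in group 5, and scaffolds lie above arms in each width group.

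Neither edge was displaced beyond 50 bp in 34.9% of group 5 matches and in 19.3% to 27.0% of the other classes. Centre moves beyond 100 bp were not rarest in group 5, at 31.7% against 31.0% with no S2 origin and 27.9% in group 1. Groups 2 to 4 had 39.0%, 35.5% and 42.0%. Fraction 4 regions in group 5 were the widest, with a median of 981 bp against 695 bp where no S2 origin overlapped. Splits ranged from 6.15% to 10.7% over the classes. Among the widest matched groups by fraction 4 width they came to 11.3% in group 5, 18.7% with no S2 origin and 36.1% in group 1, which held 13 of 36.

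The edges of the middle-sized strands were set against those of the other fractions. At all 4677 edges at which fractions 4 and 6 were not identical, with 1 region in all 3 fractions, the fraction 5 edge lay between them at 2206 (47.2%, 45.7 to 48.6). Of 2315 edges at which fractions 4 and 6 differed by more than 50 bp, it lay between them at 1427 (61.6%, 59.6 to 63.6) and nearer the fraction 6 edge at 1401 (60.5%). Picking edges or widths by a difference between fractions 4 and 6 itself favours an intermediate place for the remaining list, so nothing is read from these shares or from the medians that follow. At 480 matches that were wider in fraction 6 the median widths were 508, 784.5 and 903 bp in fractions 4, 5 and 6. At 544 that were narrower they were 790, 591 and 470 bp. The order was unbroken in 317 of the first and 311 of the second.

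The edges of the pooled S2 origins were also set against those of both fractions. Over 1864 matches with a single S2 origin, the summed distance of the origin's edges was smaller to fraction 6 in 864 (46.4%, 44.1 to 48.6) and to fraction 4 in 994. The median S2 origin there was 861 bp wide, against 688 and 758.5 bp in fractions 4 and 6. Where fraction 6 was wider, the origin was nearer fraction 6 in 266 of 451 (59.0%). Where fraction 6 was narrower, the origin was nearer fraction 6 in 88 of 352 (25.0%). These matches were picked by the width difference itself, and S2 origins were wider than both fractions at the median of the 1864 matches. A wide origin tends to lie nearer the wider region, so nothing is read from these shares.

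Regions of 1 fraction alone were narrow and rarely close to a region of the other. The 1407 groups of fraction 4 alone had a median region width of 559 bp and lay a median of 5597 bp from the nearest fraction 6 region, and 147 (10.4%) lay within 500 bp. The 2527 of fraction 6 alone had medians of 440 bp and 9146 bp, and 300 (11.9%) lay within 500 bp. Fraction 5 held 40.5% of the first and 57.7% of the second, against 93.7% of the 1 to 1 matches. The pooled S2 list held 39.4%, 44.5% and 74.2%. The 1 to 1 matches were looked up over the span of both regions, which favours an overlap.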

How the data were processed

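The deposited lists give chromosome, start and end of each region for gradient fractions 4, 5 and 6 of S2-DRSC cells, and the pooled S2 list adds a width and an efficiency. Efficiency is a deposited signal in reads per kb: multiplied by width it gave whole reads, within 0.001, for 100.0% of origins. Build dm3, MACS 1.4.1, Bowtie2 2.2.0 and SAMtools 0.1.19 are named in the submitters' processing notes. The aligner's and caller's settings, the depth of the fraction lists, and how the 2 libraries of a fraction were combined have no entry in the sources used here.

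Coordinates are as deposited. Widths are end minus start plus 1, and since the smallest start is 0, a start may be off by 1 base. Regions overlapping by at least 1 bp were linked into groups. An edge was displaced beyond 50 bp, a centre beyond 100 bp, and a width where the wider region exceeded the narrower by more than 25%. Intervals are exact binomial intervals, order-statistic intervals for medians, and Newcombe intervals for differences of shares, without a correction for the number of strata. Python 3.11.15, numpy 2.4.6, pandas 2.3.3, scipy 1.17.1 and matplotlib 3.10.9 were used, and the linking was tested on simulated data.

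Named regions were the 5 splits and 5 joins with most pieces, the 5 largest width ratios in each direction, the 3 largest centre moves in each direction and the widest groups with several regions of each fraction. Members, classes and this rule were chosen with earlier results of these data known. Alternatives covered the overlap, merging, width limits, tolerances, fold, width classes, leaving out each arm and the other fraction pairs. Gene names and sequences were not used here.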

Additional observations from a re-analysis of the deposited data

How the results depend on the processing

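Each alternative was compared with the values above, and a value counted as moved where it left the 95% counting interval of the reported one. Of 208 recomputed values, 129 stayed inside, 71 moved and 8 took the opposite sign. No paired analysis was possible because each group compared has 1 list and the fractions carry no replicate numbers. Requiring 50% overlap of both regions gave 56.2% of fraction 4 regions found in fraction 6 and 43.5% of fraction 6 regions found in fraction 4. Without regions under 300 bp, chosen after seeing the data, the values were 65.8% of fraction 4 regions found in fraction 6, 59.1% of fraction 6 regions found in fraction 4, a log2 width ratio of -0.0428 and 22.8% of matches narrower in fraction 6. Also found were 10.5 points for narrowing, near minus far. Counting regions within 500 bp as shared gave 72.0% of fraction 4 regions found in fraction 6 and 61.7% of fraction 6 regions found in fraction 4. Merging within 1 kb gave 57.9% of fraction 6 regions found in fraction 4, 1.60% of matched groups split, 0.760% of matched groups joined and 30.9% of matches reaching further in fraction 6. Also found were a log2 width ratio of -0.0201, 23.4% of matches narrower in fraction 6, 46.6% of matches shifted and 1.21 points for splits, scaffolds minus arms. The rest were 13.7 points for narrowing, scaffolds minus arms. Without regions of 4 kb or more they were 66.2% of fraction 4 regions found in fraction 6, 52.3% of fraction 6 regions found in fraction 4, 5.51% of matched groups split and a log2 width ratio of -0.0716. On the 6 arms alone they were 52.5% of fraction 6 regions found in fraction 4, 6.05% of matched groups split, 33.8% of matches reaching further in fraction 4 and 30.4% of matches reaching further in fraction 6. Also found were a log2 width ratio of -0.0278, 21.0% of matches narrower in fraction 6 and 0.819 points for narrowing, near minus far. Without arm 2L there were 24.5% of matches reaching further in fraction 6. Without arm 3R there were 70.3% of fraction 4 regions found in fraction 6, 57.9% of fraction 6 regions found in fraction 4, 24.6% of matches reaching further in fraction 6 and a log2 width ratio of -0.0694. An edge tolerance of 10 bp gave 52.0% of matches reaching further in fraction 4 and 20.2% of matches reaching further in fraction 6. A tolerance of 200 bp gave 18.8% of matches reaching further in fraction 4 and 16.5% of matches reaching further in fraction 6. A shift limit of 50 bp gave 50.7% of matches shifted. A limit of 10% of the mean width gave 42.2% of matches shifted. A threshold of 1.5-fold gave 14.1% of matches narrower in fraction 6, 13.2 points for narrowing, scaffolds minus arms and 16.8 points for narrowing, no S2 origin minus strongest. In the narrowest group by fraction 4 width there were -0.882 points for splits, scaffolds minus arms (opposite sign) and -1.08 points for narrowing, near minus far (opposite sign). In the narrowest group by mean width (chosen after seeing the data) there were -0.696 points for splits, scaffolds minus arms (opposite sign) and 24.7 points for narrowing, scaffolds minus arms. In the middle group by fraction 4 width there were 2.01 points for splits, scaffolds minus arms, 12.4 points for narrowing, scaffolds minus arms and -1.81 points for narrowing, near minus far (opposite sign). In the middle group by mean width (chosen after seeing the data) there were 2.10 points for splits, scaffolds minus arms, 25.7 points for narrowing, scaffolds minus arms and 14.1 points for narrowing, near minus far. In the widest group by fraction 4 width there were 1.50 points for splits, scaffolds minus arms and 14.9 points for narrowing, near minus far. In the widest group by mean width (chosen after seeing the data) there were 18.6 points for narrowing, no S2 origin minus strongest. Fraction 4 against 5, read with fraction 5 in the place of 6, gave 77.3% of fraction 4 regions found in fraction 6, 58.5% of fraction 6 regions found in fraction 4, 8.41% of matched groups split and 40.5% of matches reaching further in fraction 4. Also found were 24.3% of matches reaching further in fraction 6, a log2 width ratio of -0.0726, 28.4% of matches shifted and 23.6 points for narrowing, scaffolds minus arms. The rest were 2.32 points for the fraction 6 share, X minus other arms and 11.6 points for narrowing, near minus far. Fraction 5 against 6, read with fraction 5 in the place of 4, gave 71.8% of fraction 4 regions found in fraction 6, 77.8% of fraction 6 regions found in fraction 4, 2.26% of matched groups split and 4.50% of matched groups joined. Also found were 20.5% of matches reaching further in fraction 4, 31.0% of matches reaching further in fraction 6, a log2 width ratio of 0.0228 (opposite sign) and 12.4% of matches narrower in fraction 6. The rest were 22.7% of matches shifted, -0.494 points for splits, scaffolds minus arms (opposite sign), -3.44 points for narrowing, scaffolds minus arms (opposite sign) and -3.67 points for narrowing, near minus far (opposite sign). The rest were 4.90 points for narrowing, no S2 origin minus strongest. The causes of these moves were not tested, except that merging and width limits leave fewer regions by construction, and the 2 comparisons with fraction 5 replace 1 of the lists. The depth of the fraction lists is unknown, so a region missing from 1 list cannot be told apart from one not detectable at its depth.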
